A study of Mus musculus with 2 samples.

Results

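A set of 10 genes that mark the surface and the cell junctions of blood vessel endothelium was examined in mDom-/- and wild-type mouse embryos: Pecam1, Cdh5, Cldn5, Emcn, Esam, Plvap, Egfl7, Robo4, Ramp2 and Cd34. These genes, and the other gene lists below, were chosen by name with earlier results of these data known. Every array probe annotated to one of the 10 symbols or an older synonym was taken. All 10 genes had a probe, 13 probes in all, out of 36227 probes on the array and 18069 genes with a probe of their own. Each group was 1 pool of RNA from whole embryo proper on 1 array: 45 litter-matched mDom-/- embryos and 42 wild-type embryos, both at embryonic day 8.5. The mDom gene (mDomino, p400) has the present symbol Ep400 and encodes an ATPase of the TIP60/p400 chromatin complex, and the mDom-/- embryos are homozygous mutants of it. The allele was not given in the sources used here, nor were the strain and the number of litters. Both Ep400 probes read under the floor defined below on both arrays (-0.029 and 0.071 in mDom-/-, 0.215 and 0.470 in wild-type), so the arrays do not check the genotype.

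Of the 8 genes with a usable signal, 7 read lower in the mDom-/- pool, by very different amounts, and Egfl7 was nearly even. Of the 7, Pecam1 and Cldn5 passed the floor only on the wild-type array, so they could only read lower. Emcn, the mucin endomucin, was 2.13-fold lower, Pecam1, the adhesion protein CD31, was at least 2.11-fold lower, Cldn5, the tight junction claudin of endothelium, was at least 1.97-fold lower and Plvap, the diaphragm protein of vessel pores, was 1.80-fold lower. Ramp2, Robo4 and Esam were 1.29-fold, 1.16-fold and 1.14-fold lower, the last 2 within the spread between probes of 1 gene given below, and Egfl7 had a log2 ratio of -0.02. Cdh5 and Cd34 were too dim on both arrays to be compared.

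Endothelial cells line the vessels and the inner surface of the heart tube. They adhere to each other through VE-cadherin (Cdh5) at adherens junctions, claudin-5 at tight junctions, and the immunoglobulin-fold proteins PECAM-1 and ESAM at cell borders, while sialomucins such as endomucin and CD34 coat the surface that faces the blood. In the mouse embryo the first vessels form by assembly of angioblasts in the yolk sac and the embryo, at about the stage sampled here, before they are remodelled by flow. Several of these proteins are shared with blood cells: PECAM-1, ESAM and CD34 also occur on platelets, leukocytes or blood progenitors.

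Promoter sequence was at hand in the RefSeq table (build GRCm38.p6) for 5 of the 10 genes. Windows of 3 genes are shown, the genes with large ratios (Emcn, Cldn5) beside the gene with almost none (Egfl7), since ETS-family transcription factors act at many endothelial promoters. Each line gives 234 bases, from 250 to 17 bases before the reference point of the promoter sequence, 5′ to 3′ on the + strand. The windows end there because the earliest annotated start of Emcn directly follows the last base of its window. Capitals mark the ETS core GGAA or its reverse complement TTCC.
Emcn promoter, chr3:137340828-137341061: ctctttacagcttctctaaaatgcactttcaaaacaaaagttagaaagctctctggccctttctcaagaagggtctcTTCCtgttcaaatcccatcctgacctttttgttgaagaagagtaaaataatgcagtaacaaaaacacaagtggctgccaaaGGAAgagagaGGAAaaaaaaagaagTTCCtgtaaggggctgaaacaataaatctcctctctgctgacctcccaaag
Cldn5 promoter, chr16:18776597-18776830: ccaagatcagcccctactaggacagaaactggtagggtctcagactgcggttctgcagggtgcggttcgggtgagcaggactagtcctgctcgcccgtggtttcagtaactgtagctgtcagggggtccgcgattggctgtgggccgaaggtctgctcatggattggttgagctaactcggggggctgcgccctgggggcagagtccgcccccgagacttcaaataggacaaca
Egfl7 promoter, chr2:26580833-26581066: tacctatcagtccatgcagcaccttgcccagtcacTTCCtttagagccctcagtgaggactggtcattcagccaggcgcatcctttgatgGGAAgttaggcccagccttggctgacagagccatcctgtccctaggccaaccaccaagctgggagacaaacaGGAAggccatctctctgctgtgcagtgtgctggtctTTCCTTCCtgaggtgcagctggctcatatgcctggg
The Emcn window held 4 such cores, the Egfl7 window 5 and the Cldn5 window 0, none overlapping another motif searched. Of the 32841 promoter windows of this length in the table, 92.2% held at least 1 core, 28.7% at least 4 and 14.6% at least 5. A SOX core (ACAAT or ATTGT) occurred 1 time in the Emcn window and in 26.7% of all windows, and a FOX core (AAACA or TGTTT) occurred 3 times in Emcn, 1 time in Egfl7 and in 44.9% of all windows. None of the 3 windows held AGATA or TATCT, present in 25.7% of all windows. A match of letters is not a binding site, and the arrays did not measure binding.

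Intensities are given as multiples of the median of the same array. The floor was 0.541 of that median, the larger of each array's 40th percentile, and values below it were raised to it before the log2 ratio of mDom-/- over wild-type was taken. A ratio with only 1 array above the floor is a bound ("at least"), and with both below it no ratio is given. Because each group was 1 array, no value has a replicate error, no difference could be tested, and a gene was singled out only by size, at least 2-fold apart. A spread between probes of 1 gene was taken in 1302 genes whose 2 probes exceeded the floor on each array. It gave an SD of 0.25 for a log2 ratio. This SD covers error particular to a probe, but not error shared by both probes on an array, nor the difference between pools. It joins all levels of brightness, although dim probes vary more than bright ones. In whole-embryo RNA, fewer endothelial cells and less RNA per endothelial cell cannot be told apart.

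Among the junction genes, Pecam1 (chromosome 11, probe 318052), which encodes a homophilic adhesion receptor of endothelium, read 0.200 in mDom-/- and 1.14 in wild-type. The mDom-/- array was below the floor, so the log2 ratio of -1.08 is a bound. Cldn5 (chromosome 16, probe 152016), which encodes the claudin that seals endothelial tight junctions, read 0.449 in mDom-/- and 1.06 in wild-type, a bound of -0.98. Both genes read just above the array median in wild-type and under the floor in the mutant pool, and were compared only through the wild-type array. Esam (chromosome 9, probe 302005), which encodes an adhesion molecule of endothelial tight junctions and platelets, read 15.0 in mDom-/- and 17.0 in wild-type, a log2 ratio of -0.19, smaller in size than the probe SD. Cdh5 (chromosome 8, probe 127025), the VE-cadherin gene, read 0.178 in mDom-/- and 0.432 in wild-type, both below the floor. The mDom-/- value was the lower one, but neither was above the level at which the arrays were compared, so the defining cadherin of endothelium gave no usable measurement.

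Emcn (chromosome 3) had the lowest ratio among the 6 members measured on both arrays. Its probe 316016 read 3.29 in mDom-/- and 7.02 in wild-type, a log2 ratio of -1.09, larger in size than the probe SD of 0.25. Its second probe, 227020, read -0.155 in mDom-/- and 0.413 in wild-type, below the floor on both arrays, and so neither adds to nor contradicts the first. Cd34 (chromosome 1, probe 98080), the sialomucin of endothelium and blood progenitors, read 0.339 in mDom-/- and 0.447 in wild-type, both below the floor.

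Plvap (chromosome 8) had 3 probes. The brightest, 111019, read 2.31 in mDom-/- and 4.15 in wild-type, a log2 ratio of -0.85. Probe 77074 read 0.259 in mDom-/- and 0.659 in wild-type, a bound of -0.29, and probe 58075 read 0.337 in mDom-/- and 0.068 in wild-type, both below the floor. The 2 compared probes were both lower in the mutant pool, while the order was the other way round for the dimmest, which lay within the range where no ratio is given.

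**Figure D1:**
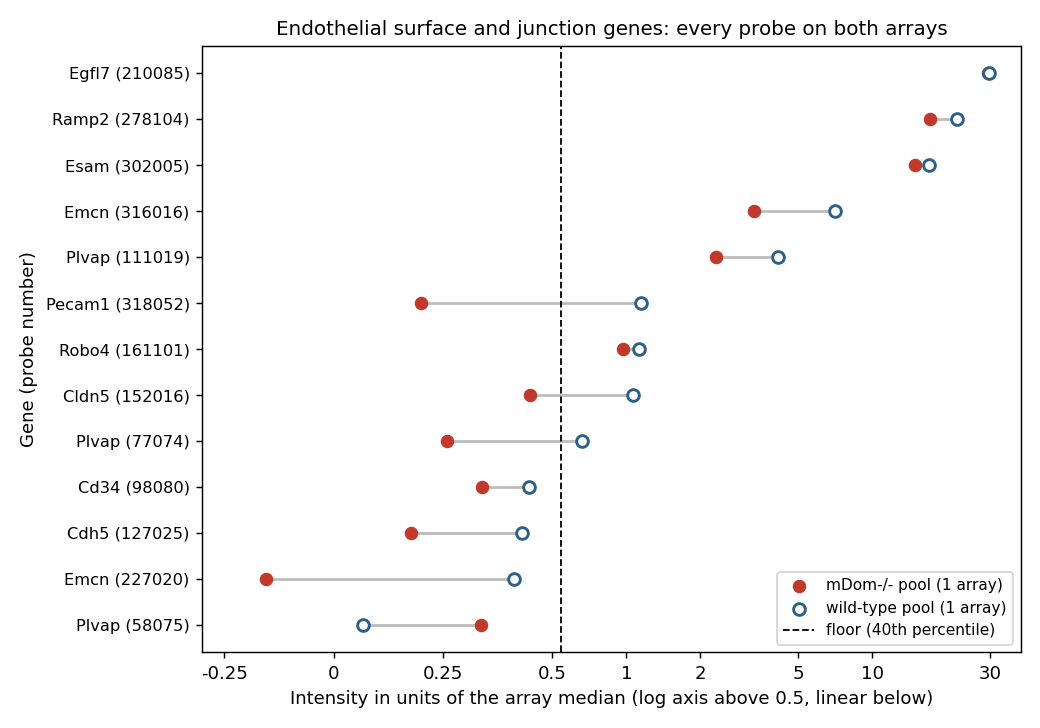
Intensity of each of the 13 probes of the 10 genes in units of the array median (horizontal axis, logarithmic above 0.5 and linear below), 1 row per gene and probe, with filled points for the mDom-/- array, open points for the wild-type array and a dashed line at the floor of 0.541. Brightness of different probes does not rank the abundance of different genes. The mDom-/- point lies left of the wild-type point in every row except the dimmest probe of Plvap, and the gap is wide for Emcn, Plvap, Pecam1 and Cldn5 and nearly absent for Egfl7.

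The genes for secreted or receptor proteins had ratios from -0.37 to -0.02. Ramp2 (chromosome 11, probe 278104), whose product couples to the receptor CALCRL to make an adrenomedullin receptor, read 17.2 in mDom-/- and 22.2 in wild-type, a log2 ratio of -0.37. Robo4 (chromosome 9, probe 161101), a guidance receptor of endothelium that stabilises vessels, read 0.973 in mDom-/- and 1.13 in wild-type, a log2 ratio of -0.21. Egfl7 (chromosome 2, probe 210085), a matrix protein secreted by endothelium, read 29.4 in mDom-/- and 29.8 in wild-type, a log2 ratio of -0.02. The Robo4 and Egfl7 ratios lie inside the probe SD of 0.25, and that of Ramp2 lies outside it. Robo4 and Esam sit close together on chromosome 9, with 2 protein-coding genes (Robo3 and Msantd2) between them in RefSeq. The ratios of both lie inside the probe SD, so no likeness is read from them.

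The members were then set beside all genes compared on the arrays. At least 2-fold lower were 2 of the 8 compared members (Emcn and Pecam1), against 0.929% of the 13137 compared genes, and 0 of 8 members were at least 2-fold higher, against 0.845%. At least 1.5-fold lower were 4 of 8 (Emcn, Pecam1, Cldn5 and Plvap), against 4.35% of all compared genes. All 8 log2 ratios were below 0, against 50.5% of all compared genes, although that of Egfl7 was 0.00014 when each array was divided by its 75th percentile. The median log2 ratio was -0.61 over the 8 members, with a range of -1.09 to -0.02, and -0.0036 over all compared genes. Pecam1 and Cldn5 passed the floor only on the wild-type array, so they had to differ. Without them, 1 of 6 members (Emcn) was at least 2-fold lower, against 0.595% of the 11926 genes measured on both arrays, the 6 ratios were below 0, against 50.7%, and the median was -0.29.

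Dim probes vary more, so each member was placed among genes of its own brightness, in 4 classes of nearly equal size by mean log2 intensity. Pecam1, Cldn5 and Robo4 fell in the dimmest class, where 2.53% of 3285 genes were at least 2-fold lower and 10.1% at least 1.5-fold lower. Plvap fell in the next class, where 4.54% were at least 1.5-fold lower. Emcn and Esam fell in the third, where 0.335% (11 of 3284) were at least 2-fold lower and the 5th and 95th percentiles of the log2 ratio were -0.46 and 0.42. Ramp2 and Egfl7 fell in the brightest class, where the 5th percentile was -0.34, just above the Ramp2 ratio of -0.37. Across all compared genes, bounds included, 92 had a ratio as low as that of Emcn or lower, 217 for Plvap, 1508 for Ramp2, 2919 for Robo4, 3287 for Esam and 6186 for Egfl7. Pecam1 and Cldn5, as bounds, have no rank.

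**Figure D2:**
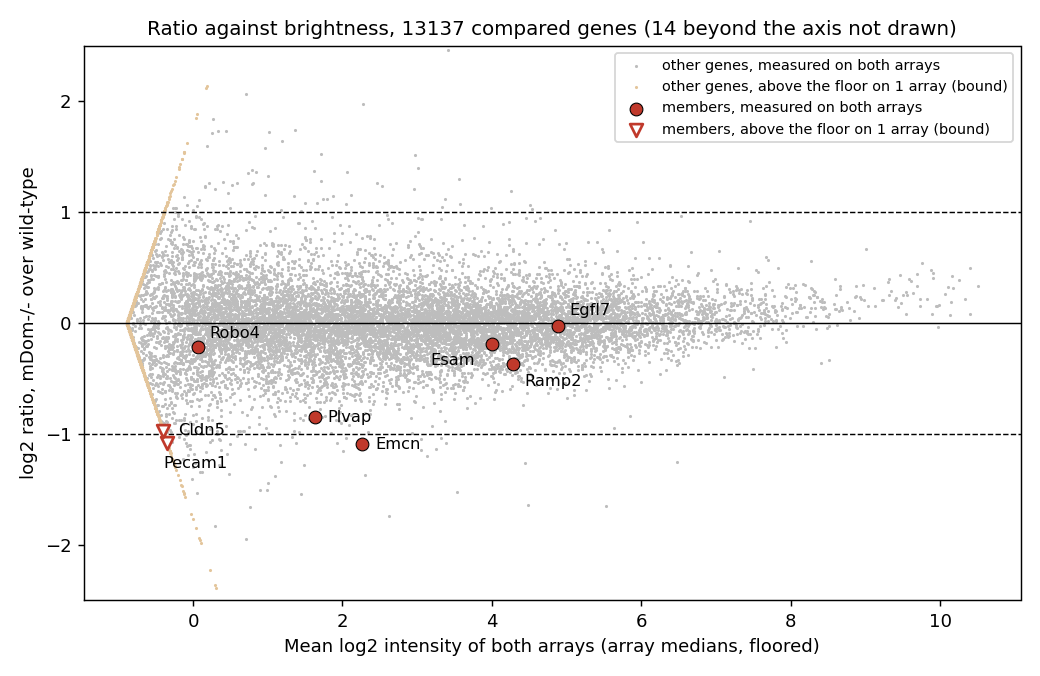
Log2 ratio of mDom-/- over wild-type (vertical axis) against the mean log2 intensity of both arrays (horizontal axis) for 13137 compared genes, with grey points for genes measured on both arrays, tan points for bounds, red circles for members measured on both arrays and open triangles for member bounds. Emcn and Plvap lie at the lower edge of the grey cloud, Pecam1 and Cldn5 on the line of bounds, and Robo4, Esam and Egfl7 within the cloud. Dashed lines mark 2-fold, and 14 genes beyond a log2 ratio of 2.5 in size are not drawn.

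Other genes of endothelial surface and secretion mostly read lower too. Of 30 listed, 21 were compared, 17 of them below 0, with a median log2 ratio of -0.36 and 16 measured on both arrays. At least 2-fold lower were 3, against 0.929% of all compared genes, and 0 were at least 2-fold higher. Of the 16 measured on both arrays, 1 was at least 2-fold lower, against 0.595%, 13 were below 0 and the median was -0.33. Stab1, a scavenger receptor of endothelium and macrophages, read 6.97 in mDom-/- and 14.2 in wild-type (2.04-fold lower), the lowest ratio measured on both arrays. The related scavenger receptor gene Stab2 read 0.521 in mDom-/- and 1.54 in wild-type (at least 2.86-fold lower). Clec14a, an endothelial C-type lectin, read 0.114 in mDom-/- and 1.40 in wild-type (at least 2.58-fold lower). Cd93, an endothelial adhesion receptor picked once its value was known, had a log2 ratio of -0.81. The highest was Apln, a peptide made by sprouting endothelial tip cells, at 12.1 in mDom-/- and 7.95 in wild-type (log2 ratio 0.61).

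Vascular receptors and endothelial transcription factors, 26 of 30 compared, had a median of -0.24 on the log2 scale. Of the 26, 18 were below 0, 2 at least 2-fold lower and 0 at least 2-fold higher, against 50.5%, 0.929% and 0.845% of all compared genes. Elk3, an ETS factor, read 0.668 in mDom-/- and 1.70 in wild-type (2.54-fold lower), and Calcrl read 0.662 in mDom-/- and 1.42 in wild-type (2.14-fold lower). Both fell in the dimmest brightness class, where 2.53% of genes were at least 2-fold lower. Their mDom-/- values lay not far above the floor of 0.541. The highest was Nrp2, a VEGF and semaphorin co-receptor, with a log2 ratio of 0.71. Picked once the values were known, the VEGF receptor gene Kdr had -0.29, the angiopoietin receptor gene Tek -0.18, its relative Tie1 -0.82, and Tal1, a factor of blood and endothelial precursors, -0.02. Joined with the members, the 3 endothelial lists held 55 compared genes, 43 of them below 0, with a median of -0.32, 7 at least 2-fold lower and 0 at least 2-fold higher, against 50.5%, 0.929% and 0.845% of all compared genes. Of the 7, Pecam1, Stab2 and Clec14a passed the floor only on the wild-type array, and over the 46 genes measured on both arrays 36 were below 0, with a median of -0.30.

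Known binding partners of the 10 proteins were read alongside them. Of 27 listed genes 21 were compared, 17 were below 0, against 50.5% of all compared genes, and the median was -0.25. Of the 21, 3 passed the floor only on the wild-type array, so they had to read lower. Over the 18 measured on both arrays 14 were below 0, against 50.7%, and the median was -0.22. Only Calcrl, the partner of RAMP2, was at least 2-fold lower, and it is also in the receptor list. The catenins that bind VE-cadherin, outside the naming rule, had log2 ratios of -0.39 (Ctnna1), -0.38 (Ctnnb1) and -0.25 (Ctnnd1). Among tight junction partners of claudins, Tjp1 (ZO-1) had -0.18, and Ocln had -0.71, both also outside that rule. Adm, the ligand of the RAMP2 receptor, was below the floor on both arrays. Ptpn11, the phosphatase SHP-2 that binds PECAM-1, had the highest ratio at 0.49. Many of these partners are made by most cell types, so their values are not specific to endothelium.

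Families of the members were taken up after the member values had been seen. Of the 15 other claudin genes compared, 10 were above 0, 0 were at least 1.5-fold lower and the median was 0.05. The bound of Cldn5 lay below all 15. However, Cldn5 passed the floor only on the wild-type array, so its ratio had to be below 0, while 14 of the 15 were measured on both arrays. Among those measured on both arrays Cldn10 was lowest (-0.55) and Cldn13 highest (0.58), and Cldn7, an epithelial claudin, read 46.3 in mDom-/- and 31.3 in wild-type (log2 ratio 0.56). Of relatives of ESAM in the CTX family, F11r had -0.49, Cxadr -0.26, Igsf11 -0.06, Jam3 -0.05, Clmp -0.02 and Gpa33 0.06, and Jam2 and Vsig2 were below the floor on both arrays. Robo1 had a bound of -0.93 and Robo2 -0.20 beside the -0.21 of Robo4, Ramp3 had a bound of -0.21, and Egfl8 had 0.35 beside the -0.02 of Egfl7. The CD34 relative Podxl was below the floor on both arrays and Podxl2 had -0.52. Of 20 cadherin genes with a probe, Cdh5 included, 10 were compared, 5 below 0 and 5 above. Cdh23, a cadherin of sensory hair cells, read 0.164 in mDom-/- and 11.3 in wild-type (at least 20.8-fold lower), and was the only cadherin at least 2-fold apart. Among cadherins measured on both arrays the lowest was Cdh11 (-0.64) and the highest Cdh15 (0.94), while the epithelial Cdh1 had 0.22 and the neural and heart Cdh2 -0.28.

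Both pools were labelled embryo proper, so yolk sac, trophoblast and decidua are not known to be in them. Markers were also read for these and for other cell types, some of which share member genes. Their part in the member values was not tested. Heart muscle and endocardium genes had a median of -0.48 over 15 compared of 18 and -0.43 over the 14 measured on both arrays, with summed intensities of 675 in mDom-/- and 775 in wild-type, and Myl2, Myh7, Tnni3 and Ttn at least 2-fold lower (log2 ratios -1.52, -1.44, -1.15 and -1.05). Ttn had 3 other compared probes, at -0.89, -0.24 (a bound) and -0.10. Sums, in this and the other lists, follow the brightest probes, here Myl7, outside the naming rule, at 374 in mDom-/- and 354 in wild-type. The endocardial genes Nfatc1 and Npr3, outside the naming rule, had 0.21 and -0.15, and Nrg1 had the highest ratio, 0.50. Mural and mesenchymal genes had a median of -0.29 over 17 of 18, with sums of 239 in mDom-/- and 293 in wild-type, Col3a1 (-1.26) and Postn (-1.04) at least 2-fold lower and Rgs5 highest (0.44). Erythroid genes had a median of -0.40 over 13 of 16, with sums of 61.5 in mDom-/- and 373 in wild-type, led by the globins Hbb-y (-4.71) and Hba-x (-3.15), and with Alas2 (-1.15) also at least 2-fold lower and Epb42 highest (0.45). Of these 13, 5 passed the floor only on the wild-type array and 1 only on the mDom-/- array, and over the 7 measured on both the median was -0.012.

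Of 22 leukocyte, platelet and progenitor genes 9 were compared, with sums of 24.1 in mDom-/- and 25.3 in wild-type. The lowest measured ratio was -0.67 (Laptm5) and the highest 0.85 (Coro1a, with 0.03 at its second probe), and the median was -0.03. The sign of that median is not settled: it was 0.24 over the 7 genes measured on both arrays, since Fcer1g and Pf4 passed the floor only on the wild-type array, 0.014 with quantile normalization and 0.0027 with loess. The markers Ptprc (CD45) and Itga2b (CD41), outside the naming rule, were below the floor on both arrays. Ptprc read -0.094 in mDom-/- and 0.077 in wild-type, and Itga2b 0.0034 in mDom-/- and 0.332 in wild-type. Others in the list were above it, such as Itgb3 (14.1 in mDom-/-, 14.7 in wild-type) and Spi1 (4.08 in mDom-/-, 4.16 in wild-type), also outside that rule. Epithelial junction genes lay on both sides of 0, with a median of 0.10 over 20 compared of 21, 8 below 0, sums of 329 in mDom-/- and 288 in wild-type, and Perp (-0.88) and Cldn7 (0.56) at the ends. Visceral endoderm and yolk sac genes had a median of 0.13 over 15 of 17, with sums of 1023 in mDom-/- and 798 in wild-type, from Lrp2 (-0.74) to Apoc2 (0.92). Trophoblast and decidua genes had a median of 0.16 over 6 of 14, with sums of 60.1 in mDom-/- and 62.7 in wild-type, from Plac1 (-0.23) to Ascl2 (0.50). Cdx2, outside the naming rule, read 18.1 in mDom-/- and 19.9 in wild-type. Tpbpa and Prl7b1, also outside that rule, were below the floor on both arrays. These sums do not measure trophoblast or decidua tissue.

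**Figure D3:**
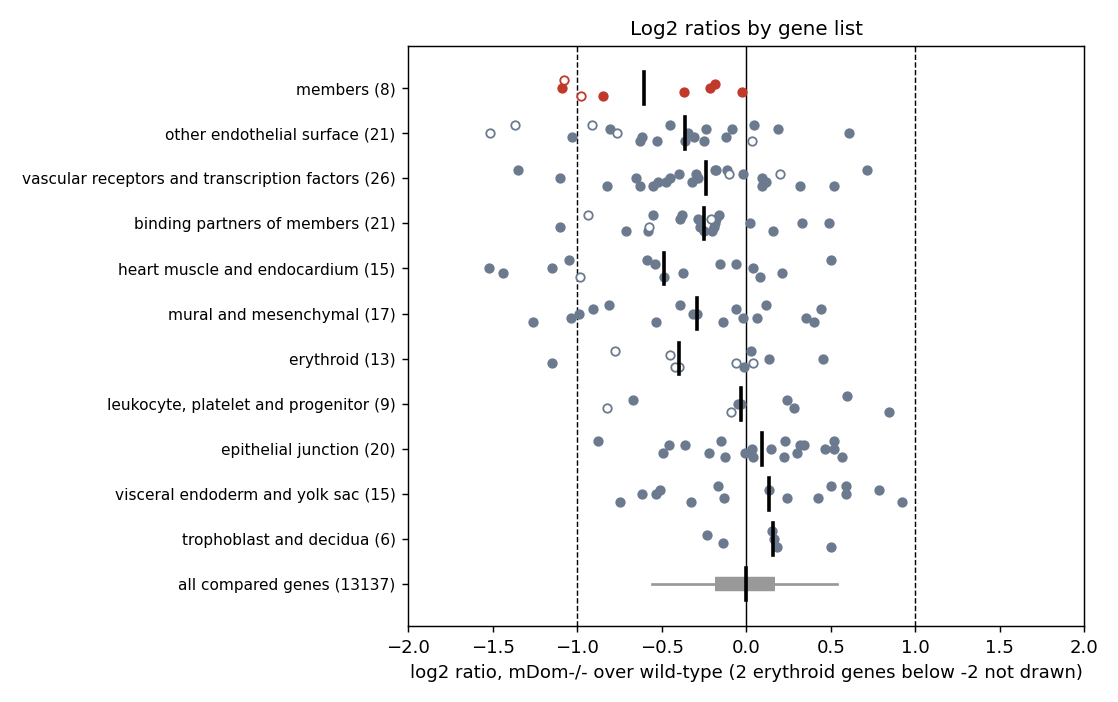
Log2 ratio of mDom-/- over wild-type (horizontal axis) of every compared gene, 1 row per gene list with the number compared in brackets, filled points for genes measured on both arrays, open points for bounds, a black bar for the list median, and for all compared genes the 25th to 75th (thick) and 5th to 95th (thin) percentiles. The medians run from -0.61 for the members through -0.48 for heart genes and -0.36 for other endothelial surface genes to 0.10 or more for epithelial junction, visceral endoderm and trophoblast genes. Over filled points alone the order differs, with -0.43 for heart genes, -0.33 for other endothelial surface genes and -0.29 for the members, and the 2 embryonic globins lie beyond the axis.

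Members with bright probes moved little between settings. Over 9 other settings of scaling, floor and probe choice the log2 ratio of Emcn ran from -1.09 to -1.06, that of Ramp2 from -0.37 to -0.35, that of Esam from -0.19 to -0.16 and that of Egfl7 from -0.03 to 0.00014, so no direction is given for Egfl7. Pecam1 and Cldn5 depend on the floor: with no floor their ratios were -2.51 and -1.24, and with the floor at the 60th percentile of the arrays neither was compared. Without a floor Cdh5 and Cd34 could be given ratios too, -1.28 and -0.40, from intensities below the floor.

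**Figure D4:**
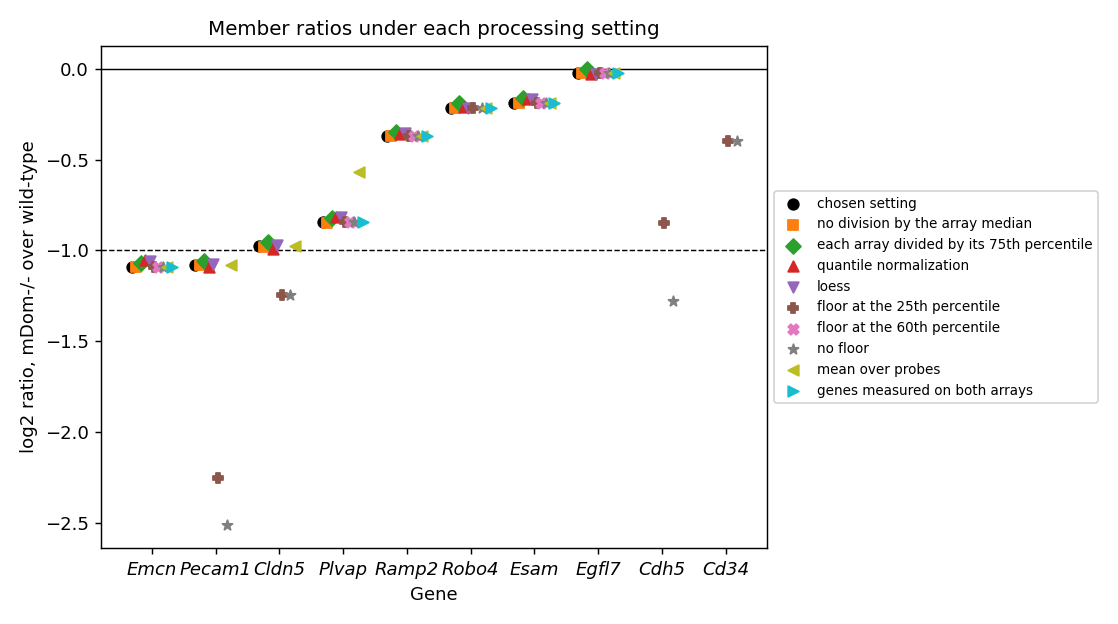
Log2 ratio of mDom-/- over wild-type (vertical axis) of each member gene (horizontal axis) under each processing setting, 1 symbol per setting. Symbols of Emcn, Ramp2, Robo4, Esam and Egfl7 overlap, those of Pecam1 and Cldn5 spread downward without a floor or with a lower one, Plvap has 1 symbol apart at -0.57 (the mean over probes), and Cdh5 and Cd34 have values only without a floor or with the floor at the 25th percentile.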

How the data were processed

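Whole-embryo RNA was labelled with biotin-UTP and hybridised to CodeLink 1-colour oligonucleotide arrays, and images were analysed with the CodeLink System Software, per the labels. The deposited values are linear spot intensities with medians of 1.05 on both arrays, scaled by the authors by a method not given in the sources used here. Entries of -9999 were taken as missing (106 mDom-/- and 105 wild-type probes). The platform annotation gave 1 symbol for 21615 probes, several for 681, from which nothing was named, and none for 13931. Current symbols came from RefSeq GRCm38.p6 (21487 probes matched).

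Each array was divided by its median and floored, and a gene took its compared probe with the highest mean log2 intensity (13137 genes, 11926 measured on both arrays). Brightness of different probes does not compare abundance of different genes. Calculations used Python 3.11.15, pandas 2.3.3 and statsmodels 0.14.6, and were tested on simulated data. The simulation planted changes only in probes well above the floor, with noise smaller than the probe SD of 0.25. It did not test the floor or the bounds. With 1 array per group, there was no test, and precision is limited by the number of arrays. Named were all members, and in each other list every gene at least 2-fold apart and the lowest and highest ratio measured on both arrays, with genes named outside this rule marked as such. Families of the members were added after their values were seen. Members and lists were chosen with earlier results of these data known. Alternatives were other scalings, loess (span 0.3), floors, probe rules and size rules.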

Additional observations from a re-analysis of the deposited data

How the results depend on the processing

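No alternative turned the sign of a member that was at least 2-fold apart. Of 116 recomputed values 105 kept to within the probe SD of 0.25 or, for counts, within 1.5 times. Many of these could hardly move, so the count does not measure robustness. Both array medians were 1.05 before scaling, and floor and probe rules leave a bright gene with 1 compared probe unchanged. Settings in which a member was not compared gave no value and are not among the 116. The median log2 ratio of the members was -0.29 over the 6 genes measured on both arrays, against -0.61, and between -0.62 and -0.37 in the other settings. The count of members at least 2-fold lower was 2, and it was 1 with the floor at the 60th percentile or over genes measured on both arrays. With 10 members compared, it was 3 with the floor at the 25th percentile and 4 with no floor. At a 1.5-fold rule the count was 4 and at a 3-fold rule 0. No member was at least 2-fold higher in any setting run. The medians of the other endothelial surface genes (-0.45 to -0.31) and of the vascular receptors and transcription factors (-0.29 to -0.21) moved by less than the probe SD. With other floors the genes compared change, and over all genes the share at least 2-fold lower was 0.293% with the 60th percentile floor, 3.31% with the 25th and 6.91% with none. No paired analysis was possible because each group was 1 array. Signal near or under the floor limits Cdh5, Cd34, Pecam1 and Cldn5, and the mean over probes moved Plvap from a log2 ratio of -0.85 to -0.57.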
